A study of Homo sapiens with 8 samples.

Results

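The response of SNORA13 knockout fibroblasts to 4-hydroxytamoxifen (4-OHT) was read from 4 of the 8 ribosome profiling libraries of the series, 2 knockout clones (66 and 69) without 4-OHT and the same 2 clones with it. Genes listed in both deposited tables, 10685 of 11546 without 4-OHT and of 11079 with it, were compared, and 8775 of them had enough reads to be tested. All cells were BJ, an established line of human skin fibroblasts, labelled BJ-HRAS. The other 4 libraries came from wild-type (WT) clones 15 and 54 of the same cells, kept under the same pair of conditions. Treated cells had received 100 nM (Z)-4-hydroxytamoxifen for 7 days, and untreated cells none. Each genotype is thus represented by 2 clones, so that the genotype cannot be told apart from the clones that carry it, and 4-OHT cannot be told apart from the table in which its libraries stand. SNORA13 was not found in either table, so the knockout was not checked on these values.

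Ribosome profiling sequences the stretches of mRNA that translating ribosomes protect from digestion, and RNA abundance was not analysed here, so that a change in mRNA level and a change in its translation cannot be told apart. 4-OHT, an active form of tamoxifen, binds the estrogen receptor, and engineered proteins that carry a mutant hormone-binding domain of this receptor can be turned on with it. Oncogenic HRAS signals through the RAF, MEK and ERK kinases, and in normal fibroblasts its persistent activity is known for ending in senescence, a lasting arrest accompanied by secretion of proteases, cytokines and growth factors. SNORA13 belongs to the H/ACA small nucleolar RNAs, which guide the conversion of uridine to pseudouridine in ribosomal RNA.

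Values are footprint RPKM over the span of each gene, introns included, and are given for clone 66 first and clone 69 second. The knockout libraries held 899246 and 1709272 reads without 4-OHT and 190308 and 979238 with it, as recovered from the values. Per-library depth limits the precision of each value, while limma-trend gave all libraries equal weight. The p-values rest on the spread between libraries of the same group, in which clone and library cannot be told apart. In the treated library of clone 66, the one with fewest reads, 1299 of the 8775 tested genes stood at 0 and 3889 had 10 reads or more, against 7703 in clone 69 with 4-OHT. A 0 in this library therefore bounds a level only loosely, and falls to 0 are given with the value that 3 reads would have there.

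The change with 4-OHT was broad, with more genes higher than lower. Footprints rose for genes of ERK signalling, histones, ribosomal proteins, mitochondrial proteins and plasminogen activation, and fell for most tested genes of the interferon response and for many collagen chains, basement membrane genes and contractile genes. By limma-trend, at a Benjamini-Hochberg adjusted p under 0.05, 1498 genes were higher with 4-OHT (17.1% of those tested) and 929 lower (10.6%), 27.7% in all. Log2 fold changes are on the scale log2(RPKM + 1), which understates the change of low values. In all 2427 called genes both treated clones lay on the same side of both untreated ones. Over all tested genes this held for 36.8% upward and 25.8% downward. Fewer cells of a type and less RNA per cell cannot be told apart in these values. The split depended on scaling: with the libraries scaled by median ratios, 999 genes were higher and 1347 lower, so that 42.6% of calls were rises in place of 61.7%. Leaving out 1 knockout library at a time left 661 higher and 453 lower (without clone 66 untreated), 953 and 550 (without clone 69 untreated), 1257 and 649 (without clone 66 treated) or 2003 and 1520 (without clone 69 treated). In each of the 12 alternative settings 543 of the 1498 rises and 346 of the 929 falls were called. Counts of lists are followed in brackets by the rises (up) and falls (down) in those alternatives that moved either count by more than 1.5 times and by at least 2 genes.

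Most genes changed in the same direction in clones 66 and 69. Across the 8775 tested genes the log2 ratios of the clones had a Pearson correlation of 0.760, and 0.909 over the 1354 genes with at least 30 reads in all 4 libraries, given as a description since genes are not independent replicates. The sign was shared by both clones in 6351 genes. Among these well-covered genes the 8 whose clones differed most included GALK1, the kinase of galactose breakdown, at 4.63 and 8.91 RPKM without 4-OHT and 17.7 and 6.27 with it. ARL6IP1, a shaping protein of the endoplasmic reticulum, stood at 6.84 and 12.7 without and 19.1 and 9.48 with 4-OHT, and the ubiquitin ligase HECTD3 at 5.94 and 6.79 without and 19.7 and 5.57 with 4-OHT. In these 3 genes clone 66 was higher with 4-OHT than without and clone 69 was lower, and no call was made.

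**Figure D1:**
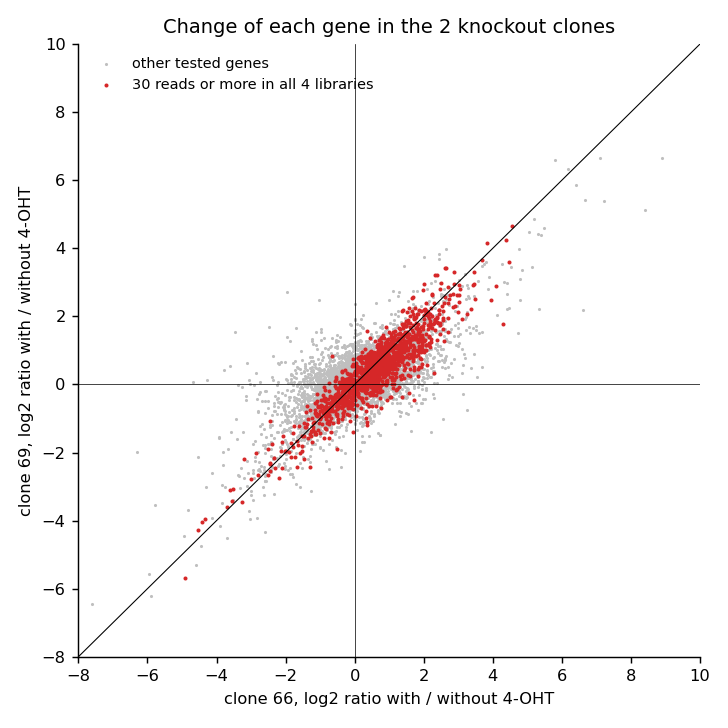
Log2 ratio of RPKM + 1 with over without 4-OHT in clone 66 (x axis) and clone 69 (y axis), 1 point per tested gene (8775), with the 1354 genes of at least 30 reads in all 4 knockout libraries in red. The points follow the line of equal change, more tightly for the red genes (Pearson r 0.909) than over all (r 0.760).

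Genes known to be induced by ERK rose almost without exception. Of 18 tested genes of this list, 17 rose and 0 fell, and 12 of them rose in each of the 12 alternative settings. Their median log2 fold change was 2.33, where that of all tested genes was 0.05. As in all lists, members were chosen with earlier results of these data known, so these counts are a description and not support. TMEM158 (ENSG00000249992.1, chromosome 3, 45224466 to 45226287), a membrane protein named for its induction by RAS, stood at 9.78 and 6.45 RPKM without 4-OHT and 774 and 599.8 with it, a log2 fold change of 6.25 ± 0.28 (SE, adjusted p = 6.57e-05). Both treated clones lay far above both untreated ones. The feedback inhibitor SPRY2 went from 0.861 and 3.29 to 52.9 and 43.5 RPKM (4.11 ± 0.37, adjusted p = 6.28e-04), and FOSL1, a subunit of the AP-1 transcription factor, from 1.32 and 3.56 to 52.6 and 48.9 (3.99 ± 0.32, adjusted p = 3.91e-04). CCND1, the G1 cyclin D1, rose from 43.4 and 57.1 to 475 and 435 RPKM and PHLDA1 from 3.005 and 7.65 to 169 and 181. The AP-1 motif TGANTCA was found, on either strand, in 0 of the 12 promoter sequences available for this list. Only the 250 bases before the start site were searched. Of the promoters of all tested genes 3.67% held it, so 0 of 12 cannot tell whether members share it. The 1 tested member that was not called was SPRED2, an inhibitor of the pathway, at 0.0546 and 0.0528 without and 0.0861 and 0.276 with 4-OHT RPKM (adjusted p = 0.295).

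AP-1 and immediate-early factors other than FOSL1 were divided. Of 10 tested, 3 rose and 2 fell (3 up and 0 down with no filter or in the fit of the 4 knockout libraries). The counts also moved without clone 66 untreated or without clone 69 untreated. Of these calls, 1 of the rises and 0 of the falls were kept in all 12 alternatives. JUN was at 29.1 and 31.0 RPKM without and 62.2 and 39.1 with 4-OHT (adjusted p = 0.207) and JUNB at 19.4 and 33.2 without and 31.5 and 52.3 with 4-OHT (adjusted p = 0.180), with the treated values above the untreated ones of the same clone in both. MAFF, a small Maf factor, rose from 0.837 and 0.441 to 4.31 and 6.92 RPKM (1.995 ± 0.28, adjusted p = 0.00286). Both ligands of the EGF receptor that were called rose while the receptor fell. AREG (ENSG00000109321.11, chromosome 4, 74445136 to 74455005) went from 0 and 0.652 to 44.1 and 38.6 RPKM (5.04 ± 0.28, adjusted p = 1.19e-04), and the untreated values rest on 0 and 11 reads. EREG rose from 0.892 and 1.61 to 50.4 and 39.9 RPKM (4.37 ± 0.37, adjusted p = 4.91e-04). EGFR, the receptor, fell from 3.22 and 3.63 to 0.490 and 1.09 (-1.32 ± 0.24, adjusted p = 0.00722) and its partner ERBB2 from 3.18 and 3.43 to 0.518 and 0.705 (-1.42 ± 0.19, adjusted p = 0.00225).

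Among secreted factors, genes of plasminogen activation rose and those of the insulin-like growth factor axis fell, while cytokines changed in both directions. Of 7 tested cytokines and chemokines, 4 rose and 2 fell (2 up and 2 down with the filter on knockout libraries), and 1 of the rises and both falls were called in each of the 12 alternatives. The cytokine IL1B went from 1.86 and 3.60 to 103 and 131 RPKM (5.02 ± 0.35, adjusted p = 2.39e-04). CXCL8, the neutrophil chemokine interleukin-8, went from 4.58 and 20.2 to 121 and 100.3 (3.35 ± 0.67, adjusted p = 0.0101), and its call was lost with a pseudocount of 0.1 (adjusted p = 0.0909). IL11, a cytokine of the interleukin-6 family, rose from 0 and 0.577 to 4.31 and 7.20, on few reads. Fewer than 2 knockout libraries held 10 reads or more of IL11, so the filter on knockout libraries left it out. In the other direction CCL2, the monocyte chemokine, fell from 60.7 and 97.8 RPKM to 0 and 1.06 (-5.76 ± 0.57, adjusted p = 7.74e-04), where 3 reads in clone 66 with 4-OHT would have given 8.21. CSF1, the growth factor of macrophages, fell from 8.31 and 8.97 to 0.520 and 0.859. IL6 was not among the tested genes.

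Of 6 tested genes of plasminogen activation, 5 rose and 0 fell. PLAU, the urokinase, rose from 15.3 and 17.6 to 384 and 465 RPKM (4.61 ± 0.20, adjusted p = 6.57e-05), the tissue activator PLAT from 4.37 and 3.62 to 75.1 and 81.3 (3.99 ± 0.17, adjusted p = 6.57e-05) and the urokinase receptor PLAUR from 3.36 and 3.13 to 20.5 and 20.6. Of 11 metalloproteases and inhibitors, 2 rose and 5 fell (2 up and 3 down in the fit of the 4 knockout libraries, without clone 66 untreated or without clone 66 treated, 2 up and 2 down without clone 69 untreated). Over all tested genes 17.1% rose and 10.6% fell, so that the share of rises in this list was near that of all tested genes. The collagenase MMP1 (ENSG00000196611.5, chromosome 11, 102789919 to 102798160) was at 3.63 and 22.3 RPKM without 4-OHT and 2213 and 2343 with it (7.78 ± 0.65, adjusted p = 4.61e-04). TIMP3, a metalloprotease inhibitor, rose from 7.05 and 7.21 to 18.02 and 21.8. The stromelysin MMP3 fell from 15.9 and 21.9 to 4.70 and 3.65 (adjusted p = 0.00921, and 0.0558 without the untreated library of clone 69). ADAMTS1 (ENSG00000154734.15, chromosome 21, 26835755 to 26845409), a protease of matrix proteoglycans that fell, was at 514 and 455 RPKM without and 7.60 and 5.17 with 4-OHT (-6.06 ± 0.25, adjusted p = 6.57e-05).

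Of 9 tested genes of the insulin-like growth factor axis, 8 fell and 0 rose (5 down in the fit of the 4 knockout libraries or without clone 66 untreated), with a median log2 fold change of -1.30. IGFBP3 (ENSG00000146674.15, chromosome 7, 45912245 to 45921272), the main binding protein of these factors in serum, stood at 193 and 195 RPKM without 4-OHT and 0 and 1.24 with it (-7.03 ± 0.40, adjusted p = 1.19e-04), with 1.75 as the value of 3 reads in clone 66. IGFBP5 fell from 247 and 203 to 11.4 and 12.3 (-4.13 ± 0.25, adjusted p = 1.50e-04) and IGFBP6 from 280.5 and 309.6 to 117 and 94.4. STC1, a secreted glycoprotein hormone, rose from 2.50 and 4.49 to 485 and 553 RPKM (6.89 ± 0.26, adjusted p = 6.57e-05), whereas its paralog STC2 was at 8.92 and 16.6 without and 6.38 and 7.64 with 4-OHT (adjusted p = 0.154). In the list of stanniocalcins and phosphate handling 4 of 8 tested genes rose and 2 fell (4 up and 0 down in the fit of the 4 knockout libraries, without clone 69 untreated or without clone 66 treated). Besides STC1 the rises were those of NT5E, the ecto-nucleotidase CD73, from 0.816 and 1.18 to 37.0 and 40.6, the phosphate carrier SLC20A1 from 4.52 and 7.78 to 121 and 105, and ENPP1, which makes pyrophosphate, from 0.229 and 0.242 to 2.71 and 2.49. The falls were those of the phosphate carrier SLC20A2, from 1.34 and 1.90 to 0.334 and 0.544, and of ENPP2, the lysophospholipase autotaxin, from 4.28 and 4.51 to 2.21 and 2.45. In the TGF-beta and activin list 4 of 10 fell and 0 rose, among them the BMP antagonist GREM1, from 3.76 and 5.11 to 0.193 and 0.488.

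**Figure D2:**
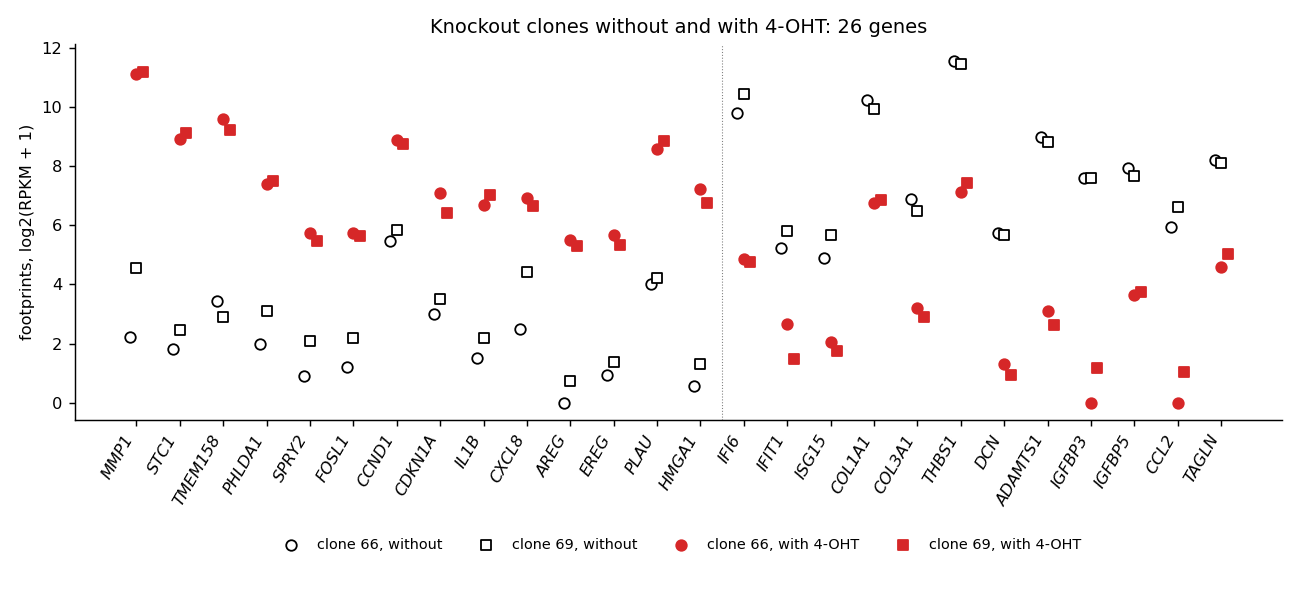
Footprints as log2(RPKM + 1) of 26 genes in the 4 knockout libraries, open symbols without and red symbols with 4-OHT, circles for clone 66 and squares for clone 69. Both treated clones lie above both untreated clones in the genes left of the dotted line and below them in those to its right.

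The interferon response fell in both clones. Of 36 tested genes of this list, 30 fell and 0 rose, with a median log2 fold change of -1.57, and 24 of them fell in each of the 12 alternatives. Their genes together held 1.14% and 1.69% of the reads of clones 66 and 69 without 4-OHT and 0.136% and 0.145% with it. IFI6 (ENSG00000126709.15, chromosome 1, 27666064 to 27672192), a mitochondrial protein induced by interferon, was at 884 and 1393 RPKM without 4-OHT and 28.2 and 26.2 with it (-5.30 ± 0.36, adjusted p = 2.39e-04). IFIT1, which binds viral RNA, fell from 36.5 and 54.6 to 5.26 and 1.75 (-3.46 ± 0.38, adjusted p = 0.00114) and ISG15, a ubiquitin-like protein, from 28.5 and 49.9 to 3.13 and 2.36 (-3.38 ± 0.37, adjusted p = 0.00112). BST2, the tether of budding virus particles, fell from 53.5 and 59.1 to 0 and 4.16, with 5.86 as the value of 3 reads in clone 66. IRF9, the DNA-binding part of the factor that carries the interferon signal to these promoters and singled out after its values were seen, fell from 33.8 and 30.1 to 1.90 and 10.9. IRF9 was called in 9 of the 12 alternatives, and its call was lost in the fit of the 4 knockout libraries (adjusted p = 0.0776) and without either untreated library (adjusted p = 0.0890 without clone 66 and 0.0647 without clone 69).

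Many promoters of this list share a sequence. The factor that contains IRF9 binds an element in which GAAA is repeated at a spacing of a few bases. The letters GAAA, any 2 bases, GAAA, searched on both strands and with overlapping matches counted in the 250 bases before the start site (RefSeq sequences, GRCh38.p14), were present in 16 of the 29 tested members with a promoter sequence (55.2%). Of the promoters of all tested genes 2.36% held it (172 of 7285), as did 3.07% of all promoter sequences given. All 16 members with this motif fell, and of the 13 with a promoter sequence and no motif 9 fell. Outside this list and the list of MHC class I presentation, 151 tested genes held the motif, of which 20 fell (13.2%) and 29 rose. Among genes with a promoter sequence and no motif 9.75% fell. A match describes these letters and is not evidence of binding. These stretches show the motif in 6 genes that fell, written 5′ to 3′ in the direction of transcription, with matches on either strand in capitals.
ISG15, chr1:1013365-1013424, plus strand: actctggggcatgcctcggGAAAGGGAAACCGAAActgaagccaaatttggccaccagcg
IFI6, chr1:27672251-27672310, minus strand: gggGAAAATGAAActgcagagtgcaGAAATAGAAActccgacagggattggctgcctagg
IFIT1, chr10:89392495-89392554, plus strand: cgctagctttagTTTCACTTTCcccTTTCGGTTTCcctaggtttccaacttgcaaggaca
BST2, chr19:17405720-17405779, minus strand: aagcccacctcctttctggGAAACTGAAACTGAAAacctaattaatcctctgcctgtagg
IFITM3, chr11:320861-320920, minus strand: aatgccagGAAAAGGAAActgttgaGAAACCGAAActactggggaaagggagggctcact
TAP1, chr6:32853798-32853857, minus strand: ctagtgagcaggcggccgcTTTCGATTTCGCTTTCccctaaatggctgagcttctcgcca

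**Figure D3:**
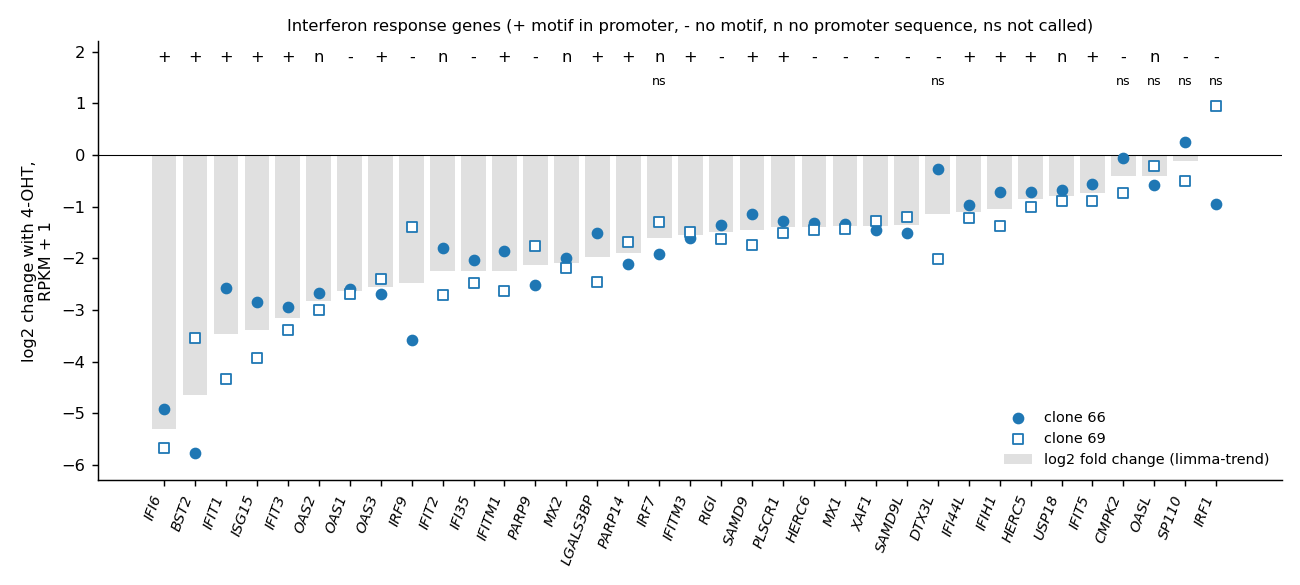
Log2 change with 4-OHT (RPKM + 1) of 35 of the 36 tested interferon response genes, in clone 66 (filled circles), clone 69 (open squares) and the fit (bars), with the motif of 2 GAAA copies marked as present (+), absent (-) or without a promoter sequence (n). The 29 called genes shown all lie below 0 in both clones, and 16 of them hold the motif.

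MHC class I presentation, which displays peptides to T cells, and complement showed falls as well. Of 13 tested presentation genes 6 fell and 0 rose (11 down with median-ratio scaling). Of the 10 with a promoter sequence 5 held the interferon motif. The peptide transporter TAP1 went from 20.99 and 30.5 to 4.78 and 7.90 RPKM (-1.88 ± 0.34, adjusted p = 0.00701). The immunoproteasome subunit PSMB8 was not called, at 30.9 and 30.5 without and 23.7 and 20.9 with 4-OHT. Of 8 complement genes 6 fell and 1 rose. C1R, a protease that starts the classical pathway, fell from 83.9 and 118 to 5.49 and 4.19 (-4.11 ± 0.23, adjusted p = 1.19e-04) and C1S from 5.77 and 6.39 to 0.127 and 0.0369. The gene that rose was CD59, which protects cells from the membrane attack complex, from 12.1 and 15.9 to 70.3 and 69.9 (2.26 ± 0.21, adjusted p = 6.48e-04).

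The fibroblast matrix lost footprints in most classes. Collagen chains together took 8.05% and 6.85% of reads without 4-OHT and 1.90% and 1.69% with it. Of 20 tested chains 13 fell and 3 rose (1 up and 12 down with no filter or without clone 66 treated, 1 up and 11 down in the fit of the 4 knockout libraries, 1 up and 14 down with median-ratio scaling, 0 up and 11 down without clone 66 untreated or without clone 69 untreated), and 11 of the falls and 0 of the rises were present in each of the 12 alternatives. COL1A1, which encodes the main chain of the fibrils of skin and bone, fell from 1223 and 983 to 106 and 116 RPKM (-3.29 ± 0.19, adjusted p = 1.24e-04) and COL3A1, the chain of type III, from 119 and 89.0 to 8.18 and 6.44 (-3.65 ± 0.21, adjusted p = 1.23e-04). The beaded-filament collagen VI did not follow. COL6A1 rose from 31.2 and 31.1 to 76.2 and 52.9 (adjusted p = 0.0359) and COL6A2 from 33.2 and 35.2 to 70.7 and 61.5 (adjusted p = 0.0456), while COL6A3 was at 62.1 and 61.8 without and 46.2 and 45.0 with 4-OHT and was not called. Both rises lost their call with median-ratio scaling (adjusted p = 0.124 and 0.165) and without the treated library of clone 66 (adjusted p = 0.141 and 0.141), and also without the untreated library of clone 66 (adjusted p = 0.135 and 0.173) or of clone 69 (adjusted p = 0.119 and 0.126). Without the treated library of clone 69 the adjusted p of COL6A2 was 0.0569. Of 18 collagen-modifying enzymes 7 fell and 0 rose, among them the crosslinking oxidase LOX, from 107 and 103 to 27.8 and 25.2, and the collagen chaperone SERPINH1, from 166 and 141 to 17.1 and 30.1.

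Falls outnumbered rises among glycoproteins and proteoglycans of the matrix too. Of 13 fibronectin and elastic fibre genes 8 fell and 1 rose (1 up and 5 down in the fit of the 4 knockout libraries or without clone 66 untreated). FN1 fell from 105 and 90.5 to 12.3 and 12.3 RPKM (-2.89 ± 0.16, adjusted p = 1.19e-04) and the microfibril protein FBN1 from 21.8 and 19.2 to 3.20 and 3.001, and the rise was that of LTBP1, a binding protein of latent TGF-beta, from 0.130 and 0.0943 to 0.752 and 1.03. Of 11 proteoglycans and hyaluronan genes 6 fell and 2 rose. DCN and LUM, small proteoglycans that bind collagen fibrils, fell from 52.7 and 50.3 to 1.49 and 0.914 and from 557 and 607 to 23.0 and 30.7. HSPG2, the basement membrane proteoglycan perlecan, fell from 50.1 and 22.1 to 0.820 and 0.796 (-4.25 ± 0.37, adjusted p = 5.12e-04). Those that rose sit on the cell surface, the hyaluronan receptor CD44, from 5.88 and 6.74 to 21.2 and 24.7, and the syndecan SDC1, from 3.83 and 5.89 to 17.01 and 17.3. Basement membrane genes, laminins among them, showed 9 falls and 0 rises in 12 tested, with LAMB2 from 118 and 121 to 7.86 and 14.1 (-3.38 ± 0.27, adjusted p = 3.91e-04).

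Matricellular proteins, which signal from the matrix without building it, showed 5 falls and 0 rises in 8 tested (2 down in the fit of the 4 knockout libraries, without clone 66 untreated, without clone 69 untreated or without clone 69 treated). THBS1, thrombospondin 1, was at 3022 and 2849 RPKM without and 140.0 and 173 with 4-OHT (-4.23 ± 0.22, adjusted p = 1.06e-04). CCN1, a target of the YAP coactivator, was at 388 and 362 without and 501 and 364 with 4-OHT and was not called (adjusted p = 0.564). Among 16 contractile and stress-fibre genes there were 11 falls and 2 rises (1 up and 7 down in the fit of the 4 knockout libraries, 1 up and 6 down without clone 66 untreated). TAGLN, transgelin, fell from 293 and 274 to 23.3 and 31.4 (-3.34 ± 0.20, adjusted p = 1.50e-04) and the actin crosslinker FLNA from 259 and 223 to 59.8 and 67.7 (-1.90 ± 0.18, adjusted p = 7.43e-04). The related TAGLN2 rose, from 25.6 and 33.7 to 106 and 84.7 (1.66 ± 0.27, adjusted p = 0.00492). Integrins, the receptors of the matrix, were divided, with 4 of 12 higher and 3 lower (4 up and 1 down in the fit of the 4 knockout libraries or without clone 66 untreated, 7 up and 5 down by limma-voom or by limma-voom with the block). ITGA2, the collagen-binding alpha 2 subunit, rose from 0.484 and 0.555 to 9.94 and 10.9, ITGA6 from 5.06 and 4.40 to 23.6 and 23.7 and the fibronectin-binding ITGA5 from 12.6 and 18.5 to 60.5 and 40.5. ITGB4, the partner of alpha 6 at the basement membrane, fell from 9.27 and 7.01 to 0 and 0.252, with 0.434 as the value of 3 reads in clone 66.

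**Figure D4:**
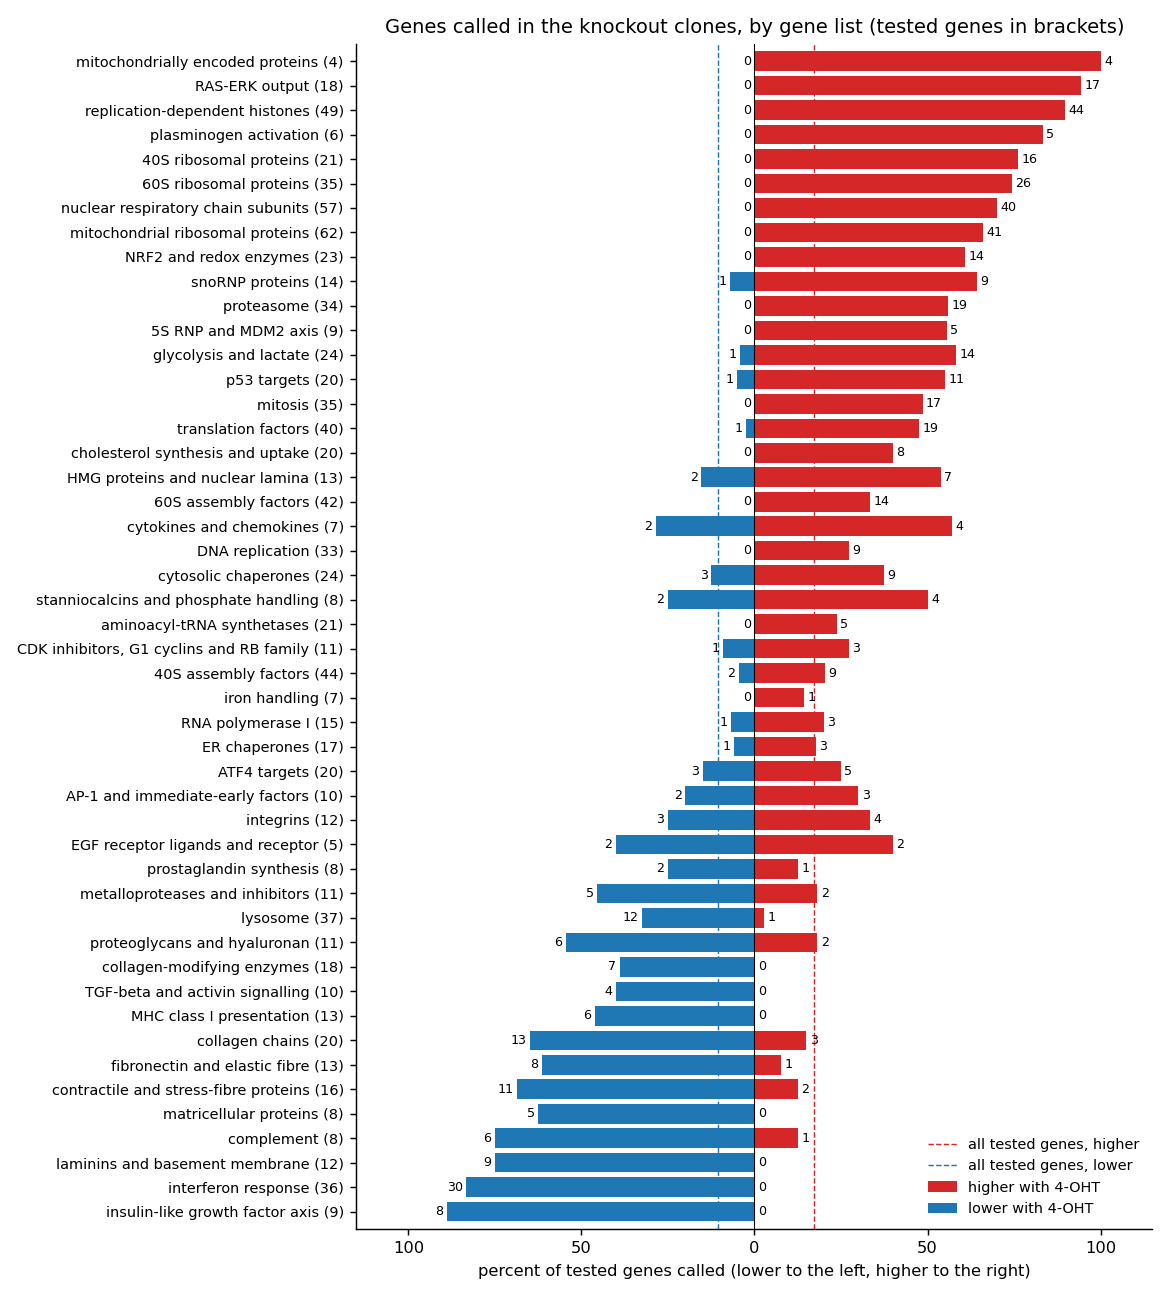
Percent of the tested genes of each of 48 gene lists that were called higher (red, to the right) or lower (blue, to the left) with 4-OHT in the knockout clones, with the number of calls at each bar and the number tested in brackets. Dashed lines mark the 17.1% higher and 10.6% lower over all tested genes; the interferon and insulin-like growth factor lists stand at the lower end and the RAS-ERK and mitochondrially encoded lists at the upper end.

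Cell-cycle genes did not move as 1 group. Of 11 tested CDK inhibitors, G1 cyclins and RB family genes 3 rose and 1 fell, beside 17.1% and 10.6% over all tested genes. CDKN1A, the inhibitor p21, was at 7.03 and 10.4 RPKM without and 136 and 84.3 with 4-OHT (3.50 ± 0.42, adjusted p = 0.00145) and CDKN2D, the inhibitor p19, at 0.881 and 2.56 without and 16.7 and 12.9 with 4-OHT (2.60 ± 0.32, adjusted p = 0.00165). CDKN2C, the inhibitor p18, fell from 4.39 and 2.61 to 0 and 0.293 (-1.96 ± 0.30, adjusted p = 0.00365), with 1.13 as the value of 3 reads in clone 66, and CDKN2B, p15, was not called at 2.25 and 1.73 without and 2.45 and 4.61 with 4-OHT. Of 20 targets of p53, 11 rose and 1 fell. Besides CDKN1A, the nuclease AEN rose from 0.811 and 1.92 to 15.8 and 7.91 and the cyclin CCNG1 from 3.87 and 5.10 to 24.6 and 22.6, while the kinase PLK2 fell from 21.6 and 22.6 to 5.96 and 10.6. MDM2, the ubiquitin ligase that limits p53, was at 1.25 and 1.39 without and 3.82 and 2.04 with 4-OHT and was not called (adjusted p = 0.0864). The chromatin protein HMGA1 (ENSG00000137309.19, chromosome 6, 34236873 to 34246231), found in senescence-associated foci, went from 0.474 and 1.499 to 149 and 107 (6.05 ± 0.31, adjusted p = 1.06e-04). In its list of HMG proteins and lamina genes 7 of 13 rose and 2 fell (4 up and 0 down in the fit of the 4 knockout libraries or without clone 66 untreated, 2 up and 2 down with median-ratio scaling, 2 up and 1 down without clone 69 untreated).

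Many genes of mitosis rose without the proliferation marker Ki-67. Of 35 tested mitosis genes 17 rose and 0 fell (10 up in the fit of the 4 knockout libraries or without clone 66 untreated), and 10 rose in each of the 12 alternatives. CKS2, a CDK subunit, rose from 3.62 and 5.41 to 43.7 and 44.9 RPKM (3.06 ± 0.28, adjusted p = 6.48e-04), PTTG1, the separase inhibitor securin, from 3.38 and 5.77 to 47.2 and 39.9 (3.03 ± 0.31, adjusted p = 9.29e-04) and CDC20, an activator of the anaphase-promoting complex, from 7.88 and 10.9 to 52.1 and 61.2 (2.48 ± 0.29, adjusted p = 0.00129). CCNB1, cyclin B1, rose from 4.10 and 7.01 to 26.9 and 35.7. MKI67 was at 3.32 and 3.79 without and 3.17 and 2.87 with 4-OHT (adjusted p = 0.506) and TOP2A, the topoisomerase of condensing chromosomes, at 10.46 and 12.4 without and 14.6 and 14.4 with 4-OHT (adjusted p = 0.258), neither of them called. Among 33 DNA replication genes there were 9 rises and 0 falls (3 up in the fit of the 4 knockout libraries, 3 up and 1 down with median-ratio scaling, 2 up without clone 66 untreated or without clone 69 untreated, 8 up and 5 down without clone 69 treated). Their median log2 fold change was 0.11, and -0.00111 with median-ratio scaling. RPA3, a subunit of the single-strand binding complex, rose from 0.351 and 0.299 to 2.62 and 2.21 (1.36 ± 0.16, adjusted p = 0.00145).

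Replication-dependent histone genes rose almost as a block. Of 49 tested 44 rose and 0 fell, with a median log2 fold change of 2.56, and 36 rose in each of the 12 alternatives. Their share of reads went from 0.408% and 0.448% to 1.94% and 2.46%. H4C4 was at 121 and 139 RPKM without and 1562 and 1746 with 4-OHT (3.66 ± 0.24, adjusted p = 2.06e-04) and H2BC10 at 61.1 and 82.9 without and 798 and 941 with 4-OHT (3.59 ± 0.39, adjusted p = 0.00111). H4C13 had the largest fitted change (6.76 ± 1.22), but its untreated values of 0 and 7.50 rest on 0 and 5 reads. Among the 5 not called was H4C1, at 74.6 and 171 without and 101 and 382 with 4-OHT, where the treated value of clone 66 lay below the untreated value of clone 69. Histone genes have near-identical copies, so values of single members are uncertain. They are also short, with a median span of 493 bases, and over all tested genes span and log2 fold change had a Spearman correlation of -0.216, a description across genes. The part of gene length in the rises of histones, ribosomal proteins and mitochondrial proteins was not tested.

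Footprints of ribosomal protein genes rose in both subunits. Of 35 tested proteins of the large ribosomal subunit 26 rose and 0 fell (median log2 fold change 1.28), and of 21 of the small subunit 16 rose and 0 fell (median 1.40). RPL35A went from 29.3 and 27.7 to 130.4 and 123 RPKM (2.12 ± 0.16, adjusted p = 3.03e-04) and RPS23 from 14.97 and 10.2 to 51.0 and 65.9 (2.14 ± 0.23, adjusted p = 0.00110). Pseudogene copies make single members of this family uncertain too. RPL5 and RPL11 form with 5S rRNA the particle that can bind MDM2, and RPL23 binds it as well. RPL11 rose from 54.7 and 59.6 to 156 and 166 (1.48 ± 0.17, adjusted p = 0.00137) and RPL23 from 8.69 and 10.3 to 27.7 and 27.1 (1.44 ± 0.18, adjusted p = 0.00161). RPL5 rose from 5.91 and 9.47 to 16.3 and 20.9 (adjusted p = 0.0109), a call made in 10 of the 12 alternatives and lost without the untreated library of clone 66 (adjusted p = 0.0630) and in the fit of the 4 knockout libraries (adjusted p = 0.0614).

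Footprints rose for most tested genes of proteins that work with small nucleolar RNAs, SNORA13's kind. Of 14 tested small nucleolar ribonucleoprotein genes 9 rose and 1 fell. In the H/ACA core, NOP10 rose from 60.5 and 65.0 to 232 and 294 RPKM (2.04 ± 0.21, adjusted p = 8.77e-04), GAR1 from 1.68 and 2.85 to 10.2 and 9.82, NHP2 from 9.10 and 10.2 to 36.03 and 30.9 and the pseudouridine synthase DKC1 from 3.19 and 2.86 to 8.06 and 7.08 (1.09 ± 0.19, adjusted p = 0.00608). Footprints of the genes of all 4 core proteins of this class thus rose. In the C/D class, which guides methylation, the methyltransferase FBL rose from 5.02 and 6.57 to 21.5 and 21.4 while NOP58 was not called at 1.87 and 1.73 without and 0.553 and 1.72 with 4-OHT. NOP56 fell from 26.7 and 27.2 to 11.8 and 19.4 (adjusted p = 0.0470). This call was made in 3 of the 12 alternatives and lost, among others, without the treated library of clone 66 (adjusted p = 0.162), with the clone as a block (adjusted p = 0.0617), without either untreated library (adjusted p = 0.157 and 0.147) and with limma-voom (adjusted p = 0.114).

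Assembly factors and RNA polymerase I had lower medians than the ribosomal proteins, 0.55 and 0.29 for the factors of the large and small subunit and 0.05 for the polymerase, a difference not tested. Of 42 assembly factors of the large subunit 14 rose and 0 fell (4 up in the fit of the 4 knockout libraries, 9 up and 2 down with median-ratio scaling, 3 up without clone 66 untreated, 6 up without clone 69 untreated, 13 up and 3 down without clone 69 treated), and 2 of the rises were called in each of the 12 alternatives. Of 44 for the small subunit 9 rose and 2 fell (3 up and 0 down in the fit of the 4 knockout libraries, 5 up and 5 down with median-ratio scaling). The share of rises was near the 17.1% over all tested genes, and that of falls was below the 10.6%. These counts also moved without clone 66 untreated or without clone 69 treated. BRIX1 rose from 3.76 and 5.39 to 19.7 and 13.2 RPKM and the nucleolar GTPase GNL3 from 12.9 and 9.93 to 38.3 and 35.0. TSR1, a late factor of the small subunit, rose from 2.51 and 4.25 to 12.2 and 9.16. In the RNA polymerase I list 3 of 15 rose and 1 fell (1 up and 1 down with no filter, with the clone as a block or with median-ratio scaling, 1 up and 0 down in the fit of the 4 knockout libraries, without clone 66 untreated or without clone 69 untreated, 4 up and 4 down without clone 69 treated), close to the shares over all tested genes, and with median-ratio scaling its median was -0.04. The gene that fell was UBTF, the promoter factor of ribosomal DNA, from 6.55 and 6.41 to 0.947 and 2.82 (adjusted p = 0.0140). UBTF was called in 9 of the 12 alternatives, and its adjusted p was 0.0754 or 0.0603 without 1 of the untreated libraries and 0.0702 in the fit of the 4 knockout libraries. POLR1A, a catalytic subunit of the polymerase, was at 1.24 and 1.18 without and 0.734 and 0.796 with 4-OHT and was not called. Of 40 translation factors 19 rose and 1 fell (10 up and 0 down in the fit of the 4 knockout libraries, 11 up and 2 down with median-ratio scaling, 9 up and 0 down without clone 66 untreated). EIF5A, which relieves stalled ribosomes, rose from 10.8 and 18.3 to 94.9 and 102 (2.72 ± 0.27, adjusted p = 7.74e-04) and EIF4EBP1, an inhibitor of cap-dependent initiation, from 0.446 and 0.588 to 4.74 and 5.43 (2.003 ± 0.22, adjusted p = 0.00111). EEF2, the elongation factor, was at 128 and 133 without and 91.9 and 114 with 4-OHT and was not called. Among 21 aminoacyl-tRNA synthetases there were 5 rises and 0 falls (0 up in the fit of the 4 knockout libraries, 2 up and 2 down with median-ratio scaling, 8 up and 1 down by limma-voom with the block), beside 17.1% and 10.6% over all tested genes. These counts also moved without clone 66 untreated, without clone 69 untreated or without clone 69 treated. Of the 5 rises, 0 kept their call in all 12 alternatives, though most single alternatives called some.

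**Figure D5:**
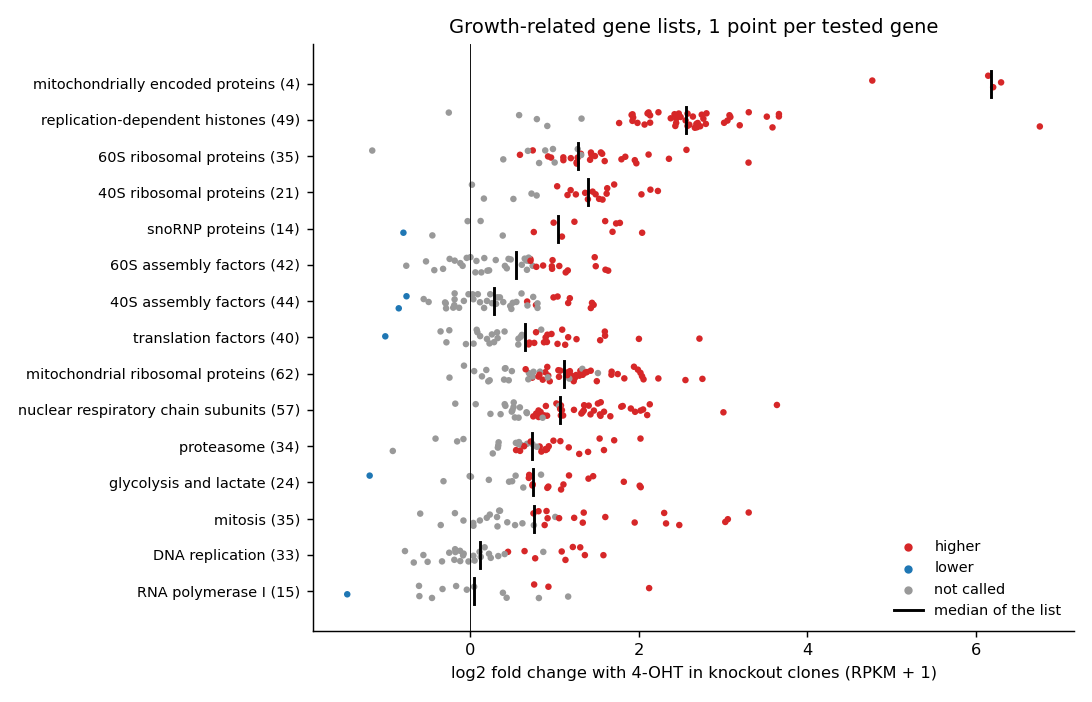
Log2 fold change with 4-OHT (RPKM + 1, limma-trend) of each tested gene in 15 lists of growth and metabolism, red for higher, blue for lower and grey for not called, with the median of each list as a black bar. The mitochondrially encoded genes and histones lie farthest to the right, and the medians of DNA replication (0.11) and RNA polymerase I (0.05) lie near 0.

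Footprints of mitochondrial protein genes rose whether encoded in the nucleus or in the organelle. Of 62 tested mitochondrial ribosomal proteins 41 rose and 0 fell (25 up in the fit of the 4 knockout libraries, 19 up without clone 66 untreated), and of 57 nuclear subunits of the respiratory chain 40 rose and 0 fell, with medians of 1.11 and 1.07. MRPL17 went from 39.8 and 43.5 to 294 and 279.8 RPKM (2.76 ± 0.17, adjusted p = 1.68e-04) and the electron carrier CYCS, cytochrome c, from 2.31 and 2.55 to 27.8 and 25.3 (3.01 ± 0.38, adjusted p = 0.00174). Of 13 genes encoded in the organelle 4 could be tested, and all of these rose. MT-CO2, a subunit of cytochrome oxidase, was at 19.5 and 23.1 without and 1746 and 1408 with 4-OHT (6.14 ± 0.66, adjusted p = 0.00109) and MT-ATP8, of the ATP synthase, at 48.2 and 36.7 without and 2759 and 3649.9 with 4-OHT (6.20 ± 0.38, adjusted p = 1.50e-04). Together they took 0.00340% and 0.00437% of reads without 4-OHT and 0.271% and 0.239% with it. These mRNAs are read by mitochondrial ribosomes. The untreated values of all 4 genes, MT-ATP8 included, rest on few reads, 12 and 27 for MT-CO2.

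In metabolism, glycolysis and sterol synthesis rose in part. Of 24 glycolysis and lactate genes 14 rose and 1 fell (7 up and 1 down in the fit of the 4 knockout libraries, 9 up and 1 down without clone 66 untreated, 8 up and 1 down without clone 69 untreated). PDK1, which keeps pyruvate out of the mitochondrion, rose from 0.442 and 0.288 to 4.27 and 4.83 RPKM (2.02 ± 0.22, adjusted p = 0.00111) and the enolase ENO1 from 63.3 and 65.4 to 211 and 251 (1.82 ± 0.17, adjusted p = 6.81e-04). GAPDH, often taken as a constant reference, rose from 336 and 342 to 834 and 971 (1.41 ± 0.18, adjusted p = 0.00178). The fall was that of SLC2A1, the glucose carrier GLUT1, from 12.3 and 14.3 to 5.42 and 5.12 (-1.19 ± 0.19, adjusted p = 0.00450). Of 20 cholesterol genes 8 rose and 0 fell, with INSIG1, the sterol-sensing retention protein, from 0.0890 and 0.516 to 7.15 and 5.80 and IDI1 from 2.96 and 2.04 to 12.4 and 10.9. Among 23 NRF2 targets and redox enzymes there were 14 rises and 0 falls (9 up in the fit of the 4 knockout libraries, 9 up and 1 down with the clone as a block or with median-ratio scaling, 6 up without clone 66 untreated). NQO1, a quinone reductase, rose from 21.9 and 24.1 to 95.6 and 105 (2.08 ± 0.23, adjusted p = 0.00116).

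Protein turnover and folding gave mixed counts. Among 34 proteasome genes there were 19 rises and 0 falls (11 up in the fit of the 4 knockout libraries, 9 up and 1 down with median-ratio scaling, 7 up without clone 66 untreated, 10 up without clone 69 untreated), with the regulatory subunit PSMD2 from 20.004 and 25.3 to 99.3 and 89.9 RPKM (2.02 ± 0.19, adjusted p = 7.28e-04). Of 37 lysosome genes 12 fell and 1 rose (1 up and 19 down by limma-voom with the block, 1 up and 7 down without clone 69 untreated). NAGLU, which degrades heparan sulfate, fell from 29.2 and 49.6 to 5.74 and 10.7 (-2.14 ± 0.39, adjusted p = 0.00704) and the protease CTSH from 6.78 and 8.88 to 1.74 and 1.27. Among 24 cytosolic chaperones there were 9 rises and 3 falls (9 up and 1 down with no filter, 4 up and 2 down in the fit of the 4 knockout libraries, 4 up and 3 down with median-ratio scaling, 4 up and 0 down without clone 66 untreated, 5 up and 1 down without clone 69 untreated, 7 up and 1 down without clone 66 treated). The share of falls was near the 10.6% over all tested genes. CCT4 and CCT5, subunits of the ring that folds actin and tubulin, rose from 13.1 and 12.5 to 43.5 and 39.7 and from 20.9 and 19.02 to 46.5 and 57.6. In the endoplasmic reticulum 3 of 17 genes rose and 1 fell (5 up and 1 down by limma-voom or by limma-voom with the block), close to the shares over all tested genes, with a median log2 fold change of 0.06 that became -0.26 with median-ratio scaling. MANF rose from 19.4 and 18.9 to 119 and 75.6 (2.25 ± 0.25, adjusted p = 0.00121) and SDF2L1 from 5.55 and 8.78 to 36.7 and 34.1, while HSPA5, the main chaperone there, was at 184 and 185 without and 216 and 165 with 4-OHT and was not called. Among 20 targets of the stress factor ATF4 there were 5 rises and 3 falls (3 up and 2 down with no filter, in the fit of the 4 knockout libraries or without clone 66 untreated, 3 up and 3 down with the clone as a block, 2 up and 5 down with median-ratio scaling, 2 up and 2 down without clone 69 untreated, 3 up and 5 down without clone 69 treated), and their median of 0.02 became -0.05. Over all tested genes 17.1% rose and 10.6% fell, with a median of 0.05, so that the ATF4 list as a whole did not stand apart. CHAC1, which breaks down glutathione, rose from 6.20 and 13.5 to 198 and 123 (3.95 ± 0.40, adjusted p = 8.93e-04), and NUPR1, a stress-induced chromatin protein, fell from 3.60 and 4.07 to 0 in both clones, with 2.52 and 0.489 as the values of 3 reads.

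Whether the response differed from that of the WT clones was tested by the interaction of 4-OHT and genotype over all 8 libraries. By limma-trend 0 of 8775 genes passed (0%; lowest adjusted p 0.556), with 452 at an unadjusted p under 0.05. By limma-voom on recovered reads 4 passed (0.0456%): COL1A1, THBS1, TAGLN and the transcriptional coregulator CITED2. COL1A1 fell less in knockout clones, from 1223 and 983 to 106 and 116 RPKM, where WT clones 15 and 54 went from 1699 and 1594 to 77.1 and 89.2 (difference of log2 fold changes 1.00 by limma-trend, adjusted p = 0.858; adjusted p = 0.0167 by limma-voom). The other 3 fell more in knockout clones. THBS1 went from 2335 and 2146 to 263 and 195 in WT clones (limma-voom adjusted p = 0.0167) and TAGLN from 411 and 373 to 95.8 and 112 (limma-voom adjusted p = 0.0215), beside the knockout values above. CITED2 went from 1179 and 1067 to 122 and 97.1 in knockout and from 614 and 653 to 144 and 162 in WT clones (limma-voom adjusted p = 0.0167). The smallest unadjusted p by limma-trend was that of MX1, an antiviral GTPase, at 1.52 and 1.77 without and 0 and 0.0263 with 4-OHT in knockout clones and 0.332 and 0.261 without and 0 and 0 with it in WT clones, with 0.408 as the value of 3 reads in clone 66 with 4-OHT (unadjusted p = 6.33e-05, adjusted p = 0.556). MX1 ended near 0 in both genotypes, and from its low untreated WT values log2(RPKM + 1) left little room for a fall. F2RL1, a receptor cleaved by proteases, went from 0 and 0.0359 to 2.57 and 3.50 in knockout clones and from 0.139 and 0.233 to 0.837 and 0.625 in WT clones (unadjusted p = 3.85e-04, adjusted p = 0.854). Fewer than 2 knockout libraries held 10 reads or more of F2RL1. CXCL8 went from 1.92 and 0 to 122 and 116 in WT clones, and its larger fitted rise there missed the threshold (unadjusted p = 0.0201, adjusted p = 0.858).

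Markers of fibroblasts changed in both directions. Of 13 markers, all tested, 7 fell and 3 rose with 4-OHT, and together they took 8.33% and 7.17% of reads without and 3.21% and 3.26% with it. Those that fell were COL1A1, COL1A2, COL3A1, DCN, LUM, FN1 and PDGFRB, a receptor that went from 30.6 and 28.9 to 10.48 and 5.48, and with median-ratio scaling or by limma-voom 9 fell. VIM, the intermediate filament of mesenchymal cells, rose from 662 and 559 to 1787 and 1932 RPKM (1.61 ± 0.21, adjusted p = 0.00221) and the calcium-binding S100A4 from 257 and 205 to 611 and 519. PDGFRA, a receptor of fibroblasts, was at 16.1 and 14.3 without and 8.43 and 10.1 with 4-OHT and was not called. Of the markers of keratinocytes, epithelia, endothelium, leukocytes, melanocytes and pericytes or smooth muscle, 9 of 45 had enough reads to be tested. Each of these lists took at most 0.0400% of the reads of any knockout library. The leukocyte markers found were CD14 and CD68, the former at 17.4 and 20.1 without and 50.4 and 17.5 with 4-OHT and the latter at 55.0 and 101 without and 106 and 151 with 4-OHT, neither of them called, and PTPRC was not among the tested genes. KRT10, a keratin of differentiating epidermis, rose from 0 and 0.130 to 5.82 and 2.26 (adjusted p = 0.0162). This call was lost without the treated library of clone 66 or the untreated library of clone 66 or 69. Fewer than 2 knockout libraries held 10 reads or more of KRT10. The other 7 keratinocyte markers were not among the tested genes.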

How the data were processed

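Ribosome profiling libraries came from 4 groups of 2 clones, given per the labels as SNORA13 knockout or WT, without or with 4-OHT. The authors deposited 1 table of values per gene for each treatment state. Reads were aligned to GRCh38 with STAR, per the submitters' processing notes, with versions not given in the sources used here. The deposited values are RPKM, a unit inferred from the values: multiplied by the RefSeq gene span they give nearly the same sum in every library, so introns count in the length. From 78.6% to 83.4% of low values came out as whole reads (tolerance 0.1), and depth was taken from that step (587045 to 1709272 reads in 7 libraries, 190308 in clone 66 with 4-OHT).

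Genes in both tables with 10 recovered reads in 2 of the 8 libraries were tested with limma-trend (limma 3.58.1, R 4.3.3) on log2(RPKM + 1), with all 8 libraries sharing 1 estimate of spread (4 residual degrees of freedom) and Benjamini-Hochberg adjustment. The fit was also run on simulated counts, drawn independently and without clone effects. That run does not show how the fit performs on these libraries. Alternatives were a pseudocount of 0.1, no filter, a filter on knockout libraries, a fit of those 4 libraries, the clone as a block, median-ratio scaling, limma-voom on recovered reads with and without the block, and each knockout library left out. Replicates pair across treatment because both libraries of a pair come from 1 clone; deviations of paired libraries from group means had a correlation of 0.00711 across genes. Named genes were a panel, the 10 largest called rises and falls at a mean of at least 10 RPKM, up to 4 called in each direction and 3 not called per list, 8 genes with the largest clone difference and 8 with the smallest p for the difference from WT. VIM, S100A4, PDGFRA, PDGFRB, COL1A2, KRT10, CD14 and CD68 are listed markers outside that rule, CITED2 was named for its limma-voom call, and IFITM3 for its promoter. The members and gene lists were chosen with earlier results of these data known. Some list members enter the counts but are not reported here by name.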

Additional observations from a re-analysis of the deposited data

How the results depend on the processing

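Fitted on the 4 knockout libraries alone, 738 genes were higher and 440 lower. The other settings gave 999 to 1895 higher and 771 to 1347 lower, and with the clone as a replicate block 1232 were higher and 771 lower. Leaving out 1 knockout library gave 661 to 2003 higher and 453 to 1520 lower, the lowest without clone 66 untreated and the highest without clone 69 treated. Of the 2427 called genes 1161 kept their call in the fit of 4 libraries, 1889 with the block and 1090 without clone 66 untreated, and 0 changed sign in any alternative. The difference from WT clones, with 0 genes called, gave 4 by limma-voom and 13 by limma-voom with the replicate block, and 0 to 2 when 1 library was left out: C3 without clone 66 untreated, MCM10 and OVCA2 without clone 69 treated. Besides the 4 named genes, limma-voom with the block called ASNS, COL1A2, COL6A3, FN1, SCUBE3, BLOC1S3, H3C4, CCN1 and TPM2. The cause of these shifts was not tested, beyond the smaller number of libraries in some.

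Of 142 called genes named in the text 127 kept their call in every alternative that tested them and 15 lost it in at least 1. Reversals of sign concerned genes that were not called. With median-ratio scaling the log2 fold change became -0.16 for CCN1, -0.31 for HSPA5, -6.96e-04 for TOP2A. By limma-voom the log2 fold change became -0.0462 for HSPA5. By limma-voom with the replicate block the log2 fold change became -0.0353 for HSPA5. Leaving out 1 library gave -0.0408 to 0.42 for CCN1, -0.0898 to 1.38 for CD14, -0.0397 to 1.32 for GALK1, -0.16 to 1.75 for H4C1, -0.16 to 1.49 for HECTD3, -0.16 to 0.23 for HSPA5, -3.88 to 0.53 for OVCA2. All medians move with scaling: that of all tested genes was 0.05 as deposited, -0.0445 with median ratios and 0.222 by limma-voom. Depth limits falls, since genes near 3 reads in clone 66 with 4-OHT cannot be told from 0.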

Other observations

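Several genes outside the lists, chosen after their values were seen, changed as much as those within them. TM4SF1, a tetraspanin-like surface protein, rose from 2.83 and 6.57 to 150.0 and 162 RPKM (4.86 ± 0.34, adjusted p = 2.39e-04). SH3BGRL3, a small thioredoxin-like protein, rose from 127 and 161 to 1024 and 1224 (2.96 ± 0.21, adjusted p = 2.39e-04). The imprinted PHLDA2 rose from 21.2 and 58.6 to 776 and 650.1 and the secreted pentraxin PTX3 from 10.6 and 24.4 to 129.7 and 143. PMAIP1, the apoptosis inducer NOXA, rose from 1.78 and 4.29 to 36.1 and 61.0 and E2F7, a repressor of cell-cycle genes, from 0.0250 and 0.251 to 8.63 and 6.07. CD274, the immune checkpoint ligand PD-L1, which interferon is known to induce, rose from 0.497 and 0.291 to 8.09 and 6.75 (2.59 ± 0.25, adjusted p = 6.96e-04), while 30 of the 36 tested interferon genes fell.

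The inhibitors of differentiation ID1, ID2 and ID3, which BMP signalling is known to induce, fell. ID1 went from 245 and 220.5 to 72.2 and 105 RPKM (-1.41 ± 0.25, adjusted p = 0.00612), ID2 from 14.6 and 16.99 to 0.934 and 0.908 and ID3 from 279 and 326 to 49.9 and 54.9 (-2.50 ± 0.17, adjusted p = 2.39e-04). OXTR, the oxytocin receptor, fell from 84.3 and 90.6 to 6.27 and 7.58 (-3.48 ± 0.17, adjusted p = 9.40e-05). In these 11 genes the treated and untreated clones did not overlap, as in all 2427 called genes. Among all tested genes this held for 36.8% upward and 25.8% downward. Each of the 11 was called in all 12 alternatives, as were 543 of the 1498 rises and 346 of the 929 falls. Since the 11 were chosen after their values were seen, this is a description and not support.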
